A study of Mus musculus with 15 samples.

Results

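The response of macrophages to tumor cell medium was compared between STAT5fl/fl and STAT5cKO cells, to find which parts of it differed when STAT5 was deleted. The quantity described is the interaction, which is the log2 change from DMEM to 4T1 CM in STAT5cKO macrophages minus the same change in STAT5fl/fl macrophages, with each mouse as a block. It rests on 10 of the 15 libraries of the series. These were bone marrow-derived macrophages (BMDMs) of BALB/c mice aged 6 wk, 2 of them STAT5fl/fl (mice 112 and 113) and 3 STAT5cKO (mice 114, 115 and 116), and each mouse number stands on a library in DMEM and a library in 4T1 CM. The mouse is the number that opens the library titles, and that libraries with the same number come from 1 animal is a reading of those titles, which do not state it. DMEM was the unstimulated control, and 4T1 CM was medium conditioned by 4T1 cells, a mouse mammary tumor line. Another library of each mouse, treated with 20 ng/mL recombinant mouse GM-CSF (rmGM-CSF), entered the fit and is used for a side comparison. STAT5cKO mice carried floxed Stat5 alleles and a Csf1r-driven Cre, and STAT5fl/fl mice carried the floxed alleles. The Cre acts in cells that have expressed Csf1r, so deletion was present while the macrophages matured in culture and not only during stimulation.

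STAT5a and STAT5b are closely related transcription factors that lie in latent form in the cytoplasm. When a cytokine such as GM-CSF binds its receptor, JAK2 on the shared beta chain phosphorylates them, and the dimers enter the nucleus and bind a palindromic element, TTCNNNGAA. The genes they are best known to raise include Cish and Socs2, whose products feed back on the receptor, and the gene they are best known to lower is Bcl6, a transcriptional repressor.

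The 10 libraries held 19950352 to 22883108 counts each, so 3 counts, taken as the floor of detection, corresponded to 0.131 to 0.1504 CPM (counts as a share of the library total, scaled to 1e+06). Intervals and floors given below cover counting error only. Stat5a and Stat5b checked the labels. Stat5b lay between 65.6 and 77.7 CPM in the 4 STAT5fl/fl libraries and had 0 to 4 counts in each of the 6 STAT5cKO libraries, and Stat5a lay between 29.0 and 44.6 CPM against 0 to 3 counts. Of 11 macrophage markers, all were detected in each group, and Csf1r, the M-CSF receptor, lay between 3821 and 4199 CPM across the series. Mertk, a receptor for dying cells, was the macrophage marker with a called interaction (-0.74 ± 0.15, adjusted p = 0.0065). It went from 20.0 and 22.4 CPM to 39.8 and 43.1 CPM in STAT5fl/fl cells and from 23.0, 26.0 and 25.6 CPM to 22.9, 36.9 and 28.5 CPM in STAT5cKO cells, and the call was lost in 7 of 15 alternatives (adjusted p from 1.5e-05 to 0.093), among them the fit without the mouse block and those without mouse 112, 113, 114 or 116. Markers of other cell types were low but not all at 0. Summed over the list, in any of the 10 libraries, neutrophil markers reached at most 2.50 CPM, mostly S100a8, T and NK cell markers 2.72 CPM, mostly Lck and Cd2, dendritic cell markers 3.94 CPM, B cell markers 0.827 CPM and erythroid markers 0.0473 CPM, while Pax5, Cd3g, Ncr1, Cpa3, Cma1, Ly6g, Krt5 and Krt14 were at 0 counts in every library. The summed macrophage markers, most of them Lyz2, lay at 25249 to 25837 CPM in DMEM and 30040 to 30814 CPM in 4T1 CM in STAT5fl/fl cells, and at 31603 to 37316 and 37572 to 47467 CPM in STAT5cKO cells, with no overlap of the genotypes in either medium. The epithelial list, carried by Cdh1, summed to 3.21 to 4.33 CPM in 4T1 CM in STAT5fl/fl and 1.23 to 2.17 CPM in STAT5cKO cells, and to at most 0.136 CPM in DMEM. The mast cell list, carried by Kit, summed to 15.9 to 20.1 CPM in DMEM and 6.91 to 8.46 CPM in 4T1 CM in STAT5fl/fl cells, and to 4.86 to 7.57 and 1.65 to 4.59 CPM in STAT5cKO cells. The fibroblast list, carried by Col1a1 and Col1a2, summed to at most 1.94 CPM in DMEM and 2.37 CPM in 4T1 CM in STAT5fl/fl cells, and to 3.44 to 6.21 and 2.74 to 8.96 CPM in STAT5cKO cells, with no overlap of the genotypes in either medium. The part of these differences in the results below was not tested. In bulk RNA, fewer cells of a kind and less RNA per cell cannot be told apart.

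4T1 CM changed much of the transcriptome in both genotypes, and a difference in the change between the genotypes was called for a small part of it. Of 13005 genes tested, 5142 (39.5%) responded to 4T1 CM in STAT5fl/fl macrophages and 5130 (39.4%) in STAT5cKO macrophages at an adjusted p under 0.01, with 20.4% higher and 19.1% lower in the former and 20.3% and 19.1% in the latter, and 4022 of the 4036 genes called in both genotypes moved in the same direction. Across genes the responses of the genotypes, which share no library, had Pearson's r of 0.898 and Spearman's rho of 0.848, a description over genes that are not independent. The interaction was called for 295 genes (2.27% of those tested). Of these, 168 (1.29%) were higher, meaning a more positive change in STAT5cKO cells, and 127 (0.977%) were lower. The median interaction over all tested genes was 0.0092, and 49 of the called genes differed more than 2-fold.

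**Figure D1:**
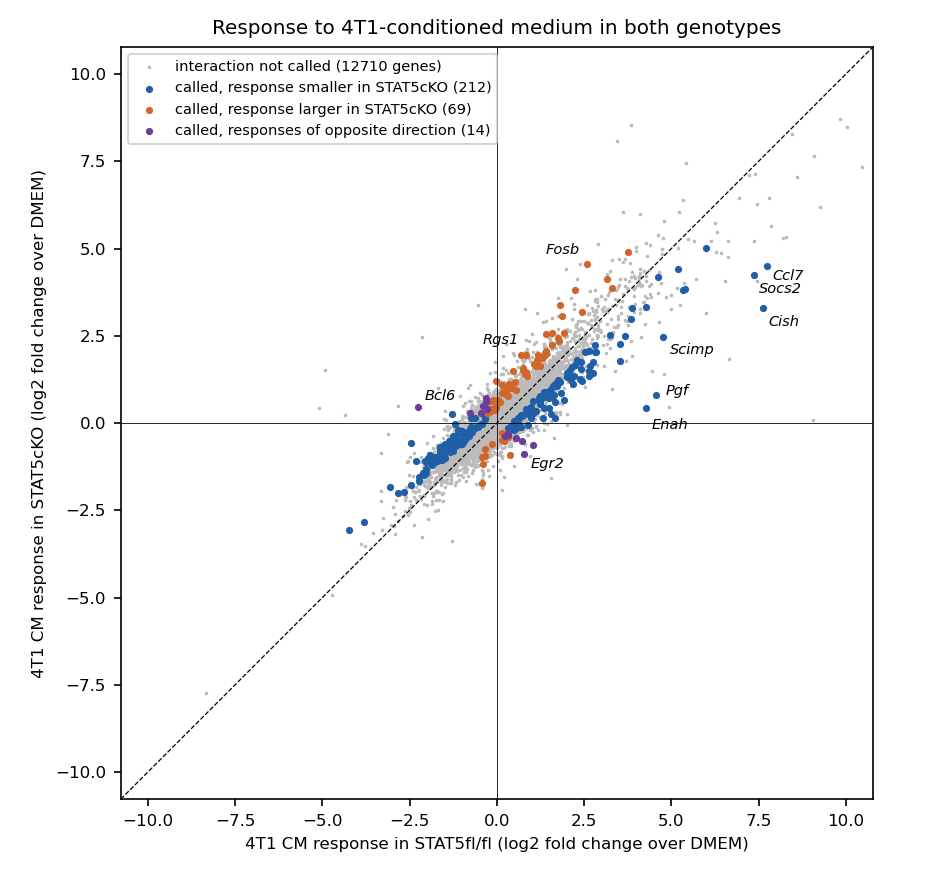
Log2 fold change from DMEM to 4T1 CM in STAT5fl/fl macrophages (x axis, 2 mice) and STAT5cKO macrophages (y axis, 3 mice), 1 point per tested gene, with the dashed line at equal responses. The 212 called genes whose response was smaller without STAT5, such as Cish and Socs2, lie on the side of the line near the x axis, the 69 with a larger response, such as Fosb and Rgs1, lie on the other side, and the 14 called in opposite directions, such as Bcl6 and Egr2, lie in the upper left and lower right of the plot.

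In most called genes the response of STAT5cKO macrophages was the smaller one. A rise in STAT5fl/fl cells was smaller in 83 genes and no longer called in STAT5cKO cells in 26, and a fall was smaller in 84 genes and no longer called in 19, which makes 212 genes. The response was larger without STAT5 in 69 genes, of which a rise was larger in 38 and called only in STAT5cKO cells in 20, and a fall was larger in 4 and called only in STAT5cKO cells in 7. In the remaining 14 genes the responses were called in opposite directions, 7 with a rise and 7 with a fall in STAT5fl/fl cells, and the STAT5cKO change was the larger one in size in 3 of the former and 4 of the latter. A response that is not called in a genotype is not thereby shown to be absent there. A smaller change in STAT5cKO cells was not particular to the called genes. Among the 12710 genes whose interaction was not called, the STAT5cKO change was the larger one in size in 4860. Among the 5142 genes called in STAT5fl/fl cells the median ratio of the STAT5cKO change to the STAT5fl/fl change was 0.778, and among the 5130 called in STAT5cKO cells the median ratio of STAT5fl/fl to STAT5cKO was 1.05, so the larger changes were on the STAT5fl/fl side whichever genotype chose the genes.

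The changes of single mice did not overlap between the genotypes for any of the 295 called genes, a property that 30% of all tested genes shared (16% with higher and 14.1% with lower changes in STAT5cKO cells). The number of calls depended on the STAT5fl/fl mice. Without mouse 113 there were 68 calls (35 higher, 33 lower) and 2995 responding genes in STAT5fl/fl cells, without mouse 112 there were 134 (77 higher, 57 lower), and without a STAT5cKO mouse there were 200 to 218. Leaving out mouse 116 took the higher calls to 109, and leaving out mouse 114 took the lower calls to 83. Without the mouse block there were 170 calls, each of them among the 295. The direction of each of the 295 genes was kept in all 16 alternatives tried. The change of threshold among them reuses the main fit and could not alter a direction. The others share libraries with that fit, so the agreement is a description. Of the 70 called genes that the naming rule chose, 30 were called in every alternative in which they were tested, and for each of the other 40 the alternatives that ended the call are given where the gene is described. The last genes inside the threshold were Fam168a (0.44), Insr (0.49) and Kpna4 (-0.47), and the first outside it were Clcn5 (-0.56), Gpr162 (0.86) and Erbin (0.45), all as interactions on the log2 scale.

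Bcl6 (ENSMUSG00000022508, minus strand of chromosome 16, 23965052 to 23988852, GRCm38) had the smallest p of all genes. Its product is a zinc finger repressor of inflammatory and cytokine-induced genes. Bcl6 was 139 and 153 CPM in the STAT5fl/fl macrophages in DMEM and 30.5 and 30.2 CPM in 4T1 CM. In STAT5cKO macrophages it was 153, 157 and 143 CPM in DMEM and 203, 198 and 224 CPM in 4T1 CM. The genotypes thus overlapped without tumor medium and stood apart in it, since the fall of 2.26 on the log2 scale was replaced by a rise of 0.46. The interaction was 2.72 ± 0.10 (SE, adjusted p = 2.1e-11), a 6.61-fold difference in response, and it was called in every alternative.

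Bcl6 was also the named gene with the most copies of the STAT element in its promoter windows, and the 3 named genes with any copy are shown for that reason. The windows, 250 bases before to 50 bases after each RefSeq start site (GRCm38.p6), were given for 49 of the 70 called genes named here, and TTCNNNGAA was found in those of Bcl6, Rhoq and Cish. It reads the same on both strands. Bcl6 has 2 start sites, and the first window below ends at the outer one while the second lies in an intron of the longer transcript in GENCODE. For Rhoq, a GTPase, 221 bases are shown that end before the annotated 5′ UTR, and for Cish the 30 bases around its RefSeq start site, which lie inside the UTR of a longer transcript. Capitals mark the element.
Bcl6, outer start site, chr16:23988853-23989102, minus strand: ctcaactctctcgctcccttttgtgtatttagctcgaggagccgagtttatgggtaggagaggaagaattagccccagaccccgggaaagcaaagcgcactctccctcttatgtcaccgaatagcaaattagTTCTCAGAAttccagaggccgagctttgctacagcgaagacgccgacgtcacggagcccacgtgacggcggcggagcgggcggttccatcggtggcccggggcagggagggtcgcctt
Bcl6, inner start site, chr16:23981284-23981533, minus strand: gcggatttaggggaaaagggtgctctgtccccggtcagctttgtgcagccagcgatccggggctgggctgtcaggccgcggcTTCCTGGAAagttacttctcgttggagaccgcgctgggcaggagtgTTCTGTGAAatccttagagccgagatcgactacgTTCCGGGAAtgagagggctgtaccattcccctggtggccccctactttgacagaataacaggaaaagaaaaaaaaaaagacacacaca
Rhoq, chr17:86962861-86963081, plus strand: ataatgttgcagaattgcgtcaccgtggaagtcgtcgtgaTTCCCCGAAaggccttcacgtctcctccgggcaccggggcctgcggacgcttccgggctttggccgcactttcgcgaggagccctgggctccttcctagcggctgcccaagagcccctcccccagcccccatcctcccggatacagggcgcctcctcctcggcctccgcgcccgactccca
Cish, chr9:107296654-107296683, plus strand: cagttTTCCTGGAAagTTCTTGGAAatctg

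In Bcl6 the element stood 118 bases before the outer start site, and 168, 122 and 88 bases before the inner one. In Cish the 2 copies began at the start site itself and 12 bases into the transcript. Among all tested genes with a window, 8.25% (771 of 9350) held the element in at least 1 window. The share was 11.2% (24 of 215) of the called genes, 10.4% (12 of 115) of those that were higher and 12% (12 of 100) of those that were lower. Counted by window, it was 6.85% of all windows and 8.49% of those of called genes. These shares were not tested, and a match in these windows is not evidence of binding.

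Cish and Socs2 rose in both genotypes and rose less without STAT5. Cish (ENSMUSG00000032578, chromosome 9), which binds the activated receptor, was at 0.273 and 0.0843 CPM in the STAT5fl/fl libraries in DMEM and at 33.0 and 38.6 CPM in 4T1 CM. In STAT5cKO cells it was at 0.184, 0.217 and 0.206 CPM and at 2.08, 1.98 and 2.04 CPM. The genotypes overlapped in DMEM and did not in 4T1 CM. The DMEM levels were 2 to 6 counts a library, so the sizes are given with counting intervals. Cish was 186-fold higher in 4T1 CM than in DMEM in STAT5fl/fl cells (95% interval 94.1 to 432), 9.04-fold higher in STAT5cKO cells (5.20 to 17.0), and 17.6-fold higher in STAT5fl/fl than in STAT5cKO cells in 4T1 CM (14.7 to 21.2). The fitted interaction was -4.34 ± 0.60 (adjusted p = 0.00029).

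Socs2, another suppressor of cytokine signaling, went from 0.818 and 0.379 CPM to 79.9 and 117 CPM in STAT5fl/fl cells. In STAT5cKO cells it went from 1.06, 0.783 and 0.617 CPM to 13.5, 15.2 and 17.3 CPM. Its interaction was -3.13 ± 0.43 (adjusted p = 0.0003). Ccnd2 (cyclin D2) rose 12.9-fold in STAT5fl/fl and 5.68-fold in STAT5cKO cells (interaction -1.18 ± 0.22, adjusted p = 0.0035), from DMEM levels of 4.32 and 3.20 CPM against 8.09, 6.52 and 7.12 CPM. Cdkn1a, the cell cycle inhibitor p21, started from 79.4 and 78.7 CPM against 147, 152 and 159 CPM and rose 6.27-fold and 4.18-fold (interaction -0.58 ± 0.11, adjusted p = 0.0031). In 4T1 CM it was at 652, 588 and 678 CPM in STAT5cKO cells against 438 and 559 CPM, a genotype difference that was not called in the fit without the mouse block. Over the alternatives the adjusted p of Socs2 ran from 5.1e-18 to 0.0117, not called with limma voom, in which the mouse entered as a random term. That of Ccnd2 ran from 2.4e-09 to 0.123, not called without mouse 113 or 114, and that of Cdkn1a from 1.1e-07 to 0.169, not called without mouse 113 or 115. The calls of Ccnd2 and Cdkn1a were also lost without the mouse block, with the 10 libraries alone and with limma voom.

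Of the 20 tested genes on a list of STAT5 targets and feedback genes, 5 were called (25%, against 2.27% of all tested genes), with Bcl6 higher and Cish, Socs2, Ccnd2 and Cdkn1a lower, and the list's median interaction was -0.26. In STAT5fl/fl cells 90% of this list responded to 4T1 CM, against 39.5% of all tested genes. Pim1, a survival kinase and a known STAT5 target, rose 4.10-fold and 2.86-fold, and its interaction of -0.52 ± 0.13 was not called (adjusted p = 0.024, from 6.1e-05 to 0.495 over the alternatives). Its 4T1 CM levels were 169.6 and 195 CPM in STAT5fl/fl and 155, 121 and 165 CPM in STAT5cKO cells. Csf2rb, which encodes the beta chain shared by the GM-CSF, IL-3 and IL-5 receptors, was the called member of 28 JAK, STAT and cytokine receptor genes (3.6%, near the 2.27% of all tested genes). It rose from 617 and 617 CPM to 1896 and 1898 CPM in STAT5fl/fl cells and from 559, 584 and 623 CPM to 1250.3, 1149 and 1318 CPM in STAT5cKO cells (interaction -0.55 ± 0.08, adjusted p = 0.00056). Its adjusted p ran from 1.8e-09 to 0.0241 over the alternatives, not called without mouse 112 or 113 or with the 10 libraries alone, and reads of the near-identical Csf2rb2 may be shared with it.

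**Figure D2:**
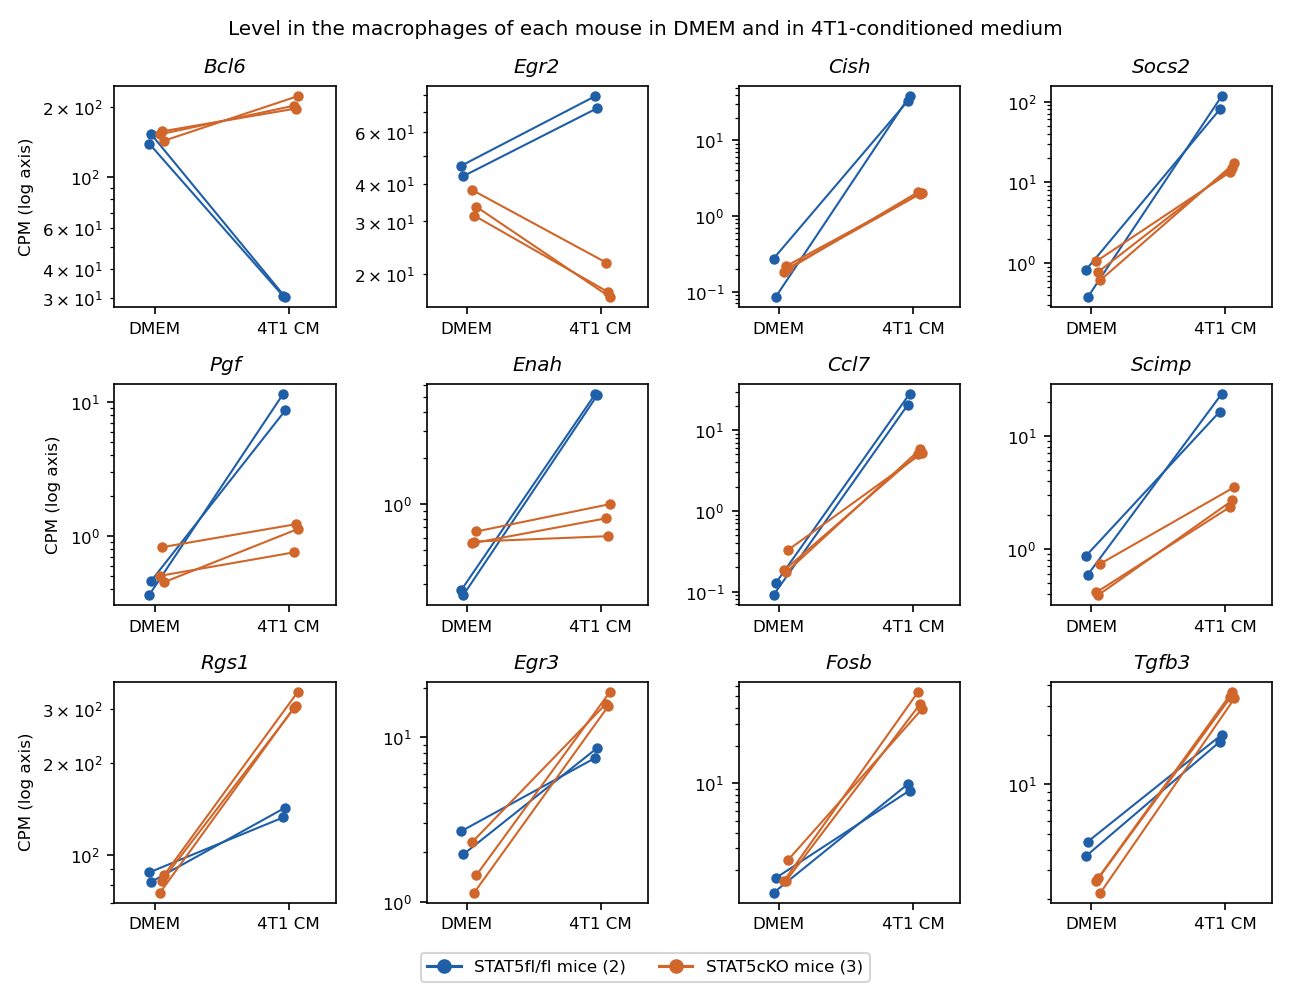
Level of 12 genes in CPM on log axes in DMEM and in 4T1 CM, each line joining the 2 libraries of a mouse (blue, 2 STAT5fl/fl mice, and orange, 3 STAT5cKO mice). Bcl6 falls to 30.5 and 30.2 CPM in STAT5fl/fl cells alone, Egr2 moves in opposite directions, Cish, Socs2, Pgf, Enah, Ccl7 and Scimp rise less in STAT5cKO cells, and Rgs1, Egr3, Fosb and Tgfb3 rise more.

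Egr2 (ENSMUSG00000037868, chromosome 10), a zinc finger factor of the early growth response family and a marker of alternatively activated macrophages, moved in opposite directions. It was 46.3 and 42.7 CPM in STAT5fl/fl cells in DMEM and 79.5 and 72.4 CPM in 4T1 CM. In STAT5cKO cells it was 38.3, 31.4 and 33.7 CPM in DMEM and 21.8, 17.3 and 16.7 CPM in 4T1 CM. The interaction was -1.66 ± 0.12 (adjusted p = 2.2e-07). Lrp12, a receptor of the low-density lipoprotein receptor family, went from 201 and 229 CPM to 312 and 318 CPM in STAT5fl/fl cells and from 186, 195 and 191 CPM to 139, 145 and 139.8 CPM in STAT5cKO cells (interaction -0.99 ± 0.09, adjusted p = 7.6e-06). The gene AU022793 also reversed, with a rise of 1.03 in STAT5fl/fl cells, a change of -0.62 in STAT5cKO cells and an interaction of -1.65 ± 0.14 (adjusted p = 3.0e-06). The calls of these 3 genes held in every alternative.

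Of the other named genes with a smaller rise in STAT5cKO cells, Enah, whose product promotes actin filament elongation at cell edges, was at 0.273 and 0.253 CPM in STAT5fl/fl cells in DMEM (6 counts in each library) and at 5.25 and 5.16 CPM in 4T1 CM. In STAT5cKO cells it was at 0.551, 0.565 and 0.659 CPM in DMEM and at 0.804, 0.614 and 0.996 CPM in 4T1 CM. The rise in the latter was not called (0.43 ± 0.30), and the interaction was -3.85 ± 0.48 (adjusted p = 0.00012). Rhoq, the GTPase gene shown above, rose from 74.5 and 72.6 CPM to 199.99 and 211 CPM in STAT5fl/fl cells, and from 74.9, 84.0 and 81.5 CPM to 97.8, 112 and 111 CPM in STAT5cKO cells (interaction -1.07 ± 0.09, adjusted p = 3.0e-06).

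Tiam1, an activator of the GTPase Rac, rose 5.44-fold in STAT5fl/fl and 2.30-fold in STAT5cKO cells (interaction -1.24 ± 0.13, adjusted p = 2.5e-05). In 4T1 CM it was at 194 and 158 CPM against 87.8, 122 and 123 CPM. Arhgef40, a predicted guanine nucleotide exchange factor, rose 11.5-fold and 3.46-fold (interaction -1.73 ± 0.17, adjusted p = 1.8e-05). Tes, a LIM protein of focal adhesions, rose 3.61-fold and 1.83-fold (interaction -0.98 ± 0.10, adjusted p = 1.8e-05). Fchsd2, a membrane-bending protein of endocytic sites, rose 2.91-fold in STAT5fl/fl cells, and its change of 0.26 ± 0.09 in STAT5cKO cells was not called (interaction -1.28 ± 0.14, adjusted p = 5.9e-05). The kinase Stk38l and the microtubule linker Clip2 had interactions of -1.06 ± 0.11 and -0.79 ± 0.09. Enah, Rhoq, Tiam1, Arhgef40, Tes, Fchsd2, Stk38l and Clip2 were called in every alternative.

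Pgf (ENSMUSG00000004791, chromosome 12), placental growth factor, is an angiogenic ligand of the VEGF family and was named for the size of its interaction. It was at 0.364 and 0.463 CPM in STAT5fl/fl cells in DMEM and at 11.5 and 8.67 CPM in 4T1 CM. In STAT5cKO cells it was at 0.505, 0.826 and 0.453 CPM and at 0.756, 1.23 and 1.13 CPM. Every STAT5cKO library in 4T1 CM was thus below both STAT5fl/fl libraries, and the interaction was -3.77 ± 0.46 (adjusted p = 9.4e-05). Scimp, an adaptor of Toll-like receptor and MHC class II signaling, rose from 0.864 and 0.590 CPM to 16.4 and 23.6 CPM in STAT5fl/fl cells and from 0.413, 0.391 and 0.741 CPM to 2.36, 2.69 and 3.53 CPM in STAT5cKO cells. Its interaction was -2.30 ± 0.40 (adjusted p = 0.0019, from 2.2e-07 to 0.0533 over the alternatives, not called without mouse 113 or 116, without the mouse block, with the 10 libraries alone or with limma voom).

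Msr1 and Cd36 rose less in STAT5cKO cells as well. Msr1, the class A scavenger receptor for modified lipoproteins, rose from 171 and 181 CPM to 799 and 833 CPM in STAT5fl/fl cells and from 212, 212 and 251 CPM to 482, 614 and 613 CPM in STAT5cKO cells (interaction -0.88 ± 0.10, adjusted p = 6.2e-05). Cd36, a class B scavenger receptor and fatty acid transporter, rose from 218 and 223 CPM to 406 and 488 CPM against 197, 161 and 139 CPM to 246, 205 and 185 CPM (interaction -0.65 ± 0.09, adjusted p = 0.00029). These were the called members of 19 tested lipid-handling genes (10.5%, against 2.27% of all tested genes), whose median interaction was -0.11. Cd36 had an adjusted p from 2.8e-09 to 0.134 over the alternatives and was not called without mouse 113, without the mouse block or with limma voom. Mgat4a, a glycosyltransferase that branches N-glycans, rose 5.30-fold and 2.90-fold (interaction -0.87 ± 0.10, adjusted p = 6.6e-05).

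**Figure D3:**
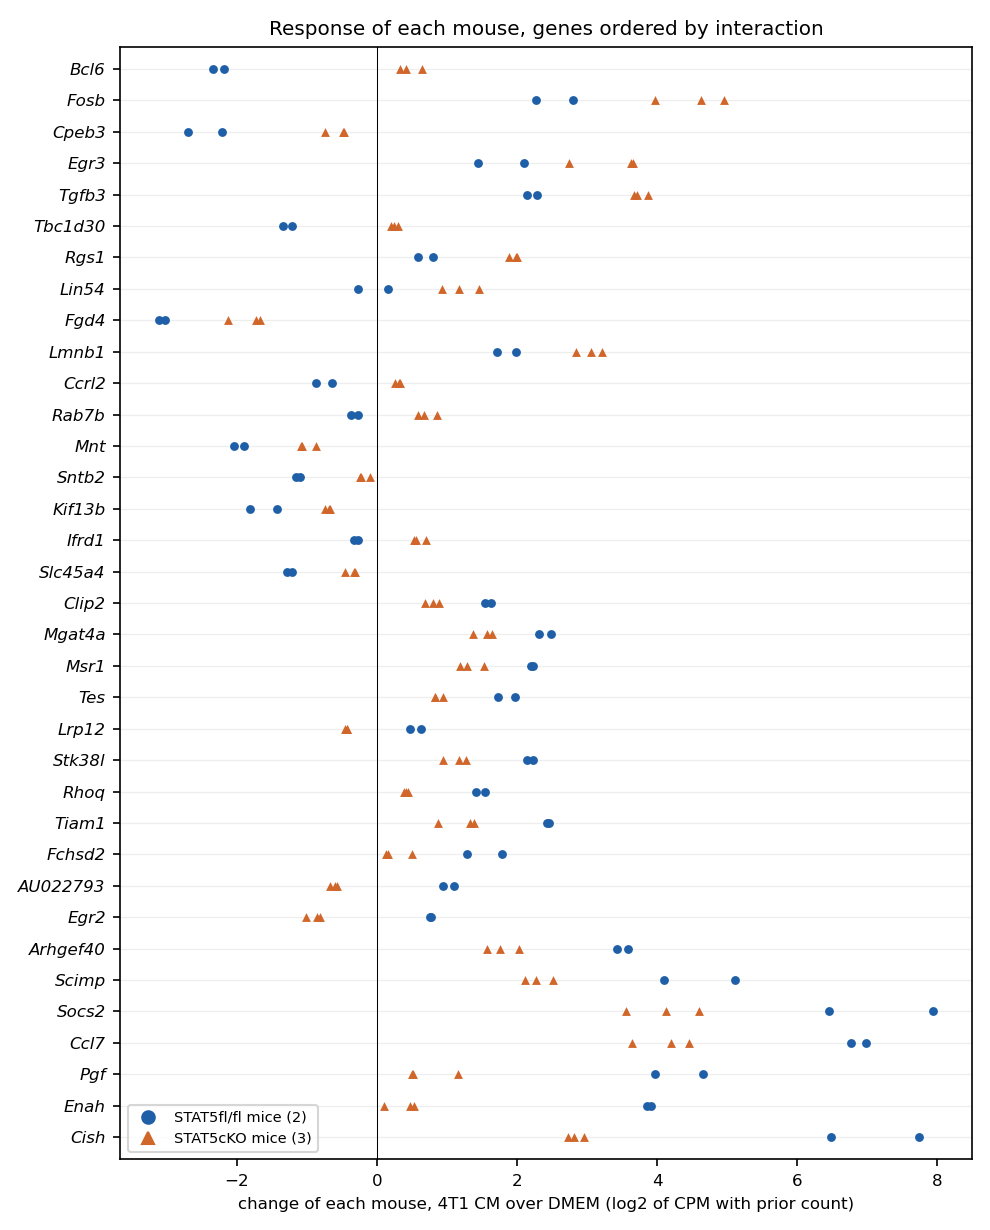
Change from DMEM to 4T1 CM in each mouse, as the difference of log2 CPM with a prior count of 2, for the 35 genes named by p or by size, ordered by interaction. The blue circles (2 STAT5fl/fl mice) and orange triangles (3 STAT5cKO mice) do not overlap for any of them, which the naming rule required.

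Chemokines, which attract leukocytes, were the list with the most negative median. Of 20 tested chemokine genes 5 were called (25%, against 2.27% of all tested genes) and all 5 were lower, and the list's median interaction was -0.68 against 0.0092 over all tested genes. In STAT5fl/fl cells 90% of the chemokine list responded to 4T1 CM, against 39.5% of all tested genes. Ccl7, a monocyte attractant, was at 2 and 3 counts in the STAT5fl/fl libraries in DMEM and at 20.3 and 28.1 CPM in 4T1 CM. In STAT5cKO cells it had 4, 4 and 8 counts in DMEM and was at 5.06, 5.81 and 5.20 CPM in 4T1 CM. In 4T1 CM it was 4.50-fold higher in STAT5fl/fl cells by counts (95% interval 3.98 to 5.11), and the fitted interaction was -3.23 ± 0.57 (adjusted p = 0.0023). Ccl2, a close neighbor with the same action, reached 45.9 and 58.3 CPM against 12.2, 16.7 and 17.5 CPM, and its interaction of -1.87 ± 0.49 was not called (adjusted p = 0.032, from 6.1e-05 to 0.29 over the alternatives).

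The neutrophil attractant Cxcl2 rose 6.19-fold and 2.83-fold (interaction -1.13 ± 0.20, adjusted p = 0.0027). Pf4 rose 6.82-fold and 2.73-fold (interaction -1.32 ± 0.26, adjusted p = 0.0047), with 18.7 and 37.3 CPM in the STAT5fl/fl libraries in 4T1 CM, a spread that nearly reached the highest STAT5cKO library at 17.6 CPM. Ccl9 rose 2.32-fold and 1.63-fold (interaction -0.51 ± 0.10, adjusted p = 0.0052), from a DMEM level that was already higher in STAT5cKO cells (567, 506 and 537 CPM against 381 and 397 CPM). Reads of Ccl9 and of its near copy Ccl6 may be shared. Ccl4 (MIP-1β) differed from the others in that it fell, from 15.9 and 17.3 CPM to 10.5 and 14.6 CPM in STAT5fl/fl cells, which was not called, and from 16.0, 15.01 and 18.8 CPM to 4.63, 3.45 and 7.15 CPM in STAT5cKO cells (interaction -1.30 ± 0.19, adjusted p = 0.00046). None of the 5 chemokine calls held in every alternative. Their adjusted p ran from 6.3e-14 to 0.0371 for Ccl4 (not called without mouse 113), from 1e-08 to 0.0656 for Cxcl2 (not called without mouse 112, 114 or 116), from 0.00011 to 0.156 for Ccl7 (not called without mouse 112, 113 or 116 or after thinning), from 3.0e-09 to 0.22 for Pf4 (not called without mouse 113, 114 or 116) and from 6.2e-07 to 0.164 for Ccl9 (not called without mouse 112, 113, 114 or 116). All 5 calls were lost without the mouse block and with limma voom, and the calls of Cxcl2, Ccl7, Pf4 and Ccl9 with the 10 libraries alone.

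Of 16 tested cytokine genes, Il1rn and Tnf were called (12.5%, against 2.27% of all tested genes), both lower, and the list's median interaction was 0.04. A response to 4T1 CM in STAT5fl/fl cells was called for 62.5% of this list, against 39.5% of all tested genes. Il1rn, the IL-1 receptor antagonist, rose 19.3-fold and 10.1-fold (interaction -0.94 ± 0.12, adjusted p = 0.00016). Its 4T1 CM levels overlapped between the genotypes, at 557 and 379 CPM against 316, 453 and 339 CPM, and its DMEM levels did not, at 27.4 and 20.6 CPM against 33.4, 39.3 and 36.0 CPM. Tnf rose from 15.6 and 17.4 CPM to 35.6 and 29.8 CPM in STAT5fl/fl cells and was at 21.5, 23.3 and 26.3 CPM and 27.6, 20.2 and 31.6 CPM in STAT5cKO cells (interaction -0.83 ± 0.17, adjusted p = 0.0064). Over the alternatives the adjusted p ran from 1.2e-15 to 0.039 for Il1rn, and from 4.1e-10 to 0.139 for Tnf, not called without mouse 112 or 113, with the 10 libraries alone or with robust dispersions. Neither was called without the mouse block or with limma voom.

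Among 16 tested chemokine and phagocyte receptors, 3 interactions were called (18.8%, against 2.27% of all tested genes), 1 higher and 2 lower. Ccrl2, an atypical receptor that presents chemerin, fell from 42.3 and 38.0 CPM to 23.2 and 24.3 CPM in STAT5fl/fl cells and rose from 49.2, 46.2 and 52.4 CPM to 61.8, 57.3 and 63.0 CPM in STAT5cKO cells (interaction 1.06 ± 0.10, adjusted p = 8.5e-06, called in every alternative). Ccr1, a receptor of inflammatory chemokines, rose 36.6-fold and 21.3-fold (interaction -0.78 ± 0.14, adjusted p = 0.0027), and C3ar1, the receptor of complement C3a, rose 1.48-fold in STAT5fl/fl cells and changed by 0.10 ± 0.05 in STAT5cKO cells (interaction -0.47 ± 0.08, adjusted p = 0.0026). The adjusted p ran from 0.00073 to 0.0826 for Ccr1 over the alternatives, not called without mouse 112, 113, 114 or 116, without the mouse block, with the 10 libraries alone, with limma voom or after thinning. It ran from 1.3e-06 to 0.1 for C3ar1, not called without mouse 112, 113 or 114 or with the 10 libraries alone.

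The prostaglandin E2 receptors of the cAMP-raising kind, Ptger2 and Ptger4, were the called members of 16 tested prostaglandin and leukotriene genes (12.5%, against 2.27% of all tested genes). Of that list 56.25% responded to 4T1 CM in STAT5fl/fl cells, against 39.5% of all tested genes. Ptger4 rose from 39.4 and 49.97 CPM to 88.5 and 98.4 CPM in STAT5fl/fl cells and from 55.2, 50.7 and 46.9 CPM to 65.7, 57.7 and 66.0 CPM in STAT5cKO cells (interaction -0.76 ± 0.11, adjusted p = 0.00032, from 9.7e-10 to 0.014 over the alternatives, not called without mouse 112). Ptger2 rose 6.30-fold and 3.12-fold (interaction -1.01 ± 0.20, adjusted p = 0.0051, from 4.5e-06 to 0.146, not called without mouse 113, 114, 115 or 116, without the mouse block, with the 10 libraries alone or with limma voom). Cd274, which encodes the checkpoint ligand PD-L1, was the called gene of 16 tested MHC class II and costimulatory genes (6.25%, against 2.27%), of which 81.25% responded in STAT5fl/fl cells. It rose from 98.0 and 82.1 CPM to 113 and 110.4 CPM in STAT5fl/fl cells and fell from 71.2, 67.5 and 66.6 CPM to 54.4, 53.0 and 54.1 CPM in STAT5cKO cells (interaction -0.66 ± 0.11, adjusted p = 0.0014, from 9.7e-08 to 0.0551, not called without mouse 113).

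Of 19 tested survival and apoptosis genes 3 were called (15.8%, against 2.27% of all tested genes), 1 higher and 2 lower. A response to 4T1 CM in STAT5fl/fl cells was called for 57.9% of them, against 39.5% of all tested genes. Bcl2l11, which encodes the pro-apoptotic protein BIM, was at 148 and 134 CPM in DMEM and 127 and 133 CPM in 4T1 CM in STAT5fl/fl cells, and rose from 155, 152 and 145 CPM to 245, 221 and 249.8 CPM in STAT5cKO cells (interaction 0.78 ± 0.10, adjusted p = 0.00017, called in every alternative). The anti-apoptotic genes Bcl2a1b and Bcl2a1d rose 3.19-fold and 3.18-fold in STAT5fl/fl cells. In STAT5cKO cells Bcl2a1b was at 4.64, 4.74 and 7.20 CPM in DMEM and 5.86, 5.90 and 6.61 CPM in 4T1 CM, and Bcl2a1d rose 1.52-fold (interactions -1.52 ± 0.20 and -1.07 ± 0.16, adjusted p = 0.00015 and 0.00062). These copies are nearly identical, and reads may be shared between them. Over the alternatives the adjusted p ran from 4.1e-13 to 0.0105 for Bcl2a1b and from 7.2e-07 to 0.0332 for Bcl2a1d. Neither was called without mouse 113, and Bcl2a1d was not called with limma voom.

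The largest group of higher interactions was made of genes that fell in STAT5fl/fl cells and fell less, or not detectably, in STAT5cKO cells. Cpeb3, a regulator of mRNA translation, fell from 22.1 and 23.3 CPM to 4.72 and 3.51 CPM in STAT5fl/fl cells, and from 19.2, 18.9 and 16.0 CPM to 11.4, 13.5 and 11.5 CPM in STAT5cKO cells (interaction 1.89 ± 0.17, adjusted p = 6.7e-06). Fgd4, an activator of the GTPase Cdc42, fell 8.39-fold and 3.59-fold (interaction 1.22 ± 0.13, adjusted p = 2.7e-05). The kinesin Kif13b fell 3.07-fold and 1.62-fold, the transporter gene Slc45a4 2.38-fold and 1.29-fold, and Sntb2, a syntrophin of the dystrophin complex, 2.18-fold in STAT5fl/fl cells with a change of -0.19 ± 0.06 in STAT5cKO cells. Their interactions were 0.92 ± 0.10, 0.89 ± 0.10 and 0.94 ± 0.09. Tbc1d30, of the Rab GTPase-activating family, fell from 7.32 and 6.66 CPM to 3.11 and 2.58 CPM against 5.37, 4.31 and 3.54 CPM and 6.38, 4.96 and 4.39 CPM (interaction 1.55 ± 0.21, adjusted p = 0.00029, from 2.4e-09 to 0.0171 over the alternatives, not called without mouse 113).

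A few falls were turned into rises, as for Bcl6. Rab7b, a GTPase of late endosomal transport, went from 249 and 240.2 CPM to 206 and 185 CPM in STAT5fl/fl cells and from 188, 194 and 205 CPM to 342, 307 and 307 CPM in STAT5cKO cells (interaction 1.03 ± 0.09, adjusted p = 3.8e-06). Ifrd1, an interferon-related regulator of transcription, went from 76.2 and 70.0 CPM to 63.0 and 56.1 CPM against 94.3, 90.7 and 93.5 CPM to 153, 134 and 136 CPM (interaction 0.90 ± 0.10, adjusted p = 5.9e-05). The calls of Rab7b and Ifrd1 held in every alternative, as did those of the genes of the preceding paragraph other than Tbc1d30.

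The MYC network and cell cycle list had the largest share of called members, 6 of 18 (33.3% against 2.27% of all tested genes), 3 in each direction. In STAT5fl/fl cells 94.4% of the list responded to 4T1 CM, against 39.5% of all tested genes. Every gene with a called interaction had a called response in at least 1 genotype. The 3 higher genes encode partners of MAX that act against MYC. Mnt fell from 133 and 125 CPM to 32.3 and 33.5 CPM in STAT5fl/fl cells and from 113, 111 and 104 CPM to 53.1, 53.1 and 56.5 CPM in STAT5cKO cells (interaction 0.96 ± 0.11, adjusted p = 6.8e-05). Mxd1 fell from 23.6 and 22.0 CPM to 9.97 and 9.80 CPM in STAT5fl/fl cells, and was at 20.1, 21.3 and 21.7 CPM in DMEM and 20.0, 19.7 and 21.9 CPM in 4T1 CM in STAT5cKO cells (interaction 1.17 ± 0.14, adjusted p = 8.2e-05). Mxi1 rose in both genotypes and more in STAT5cKO cells, by 2.68-fold and 4.15-fold (interaction 0.63 ± 0.11, adjusted p = 0.0015). The lower ones were Ccnd2 and Cdkn1a, given above, and Cdk6, a kinase partner of the D cyclins, which rose 2.81-fold and 1.66-fold (interaction -0.76 ± 0.13, adjusted p = 0.0015). Mnt and Mxd1 were called in every alternative. The adjusted p ran from 4.5e-06 to 0.0869 for Mxi1 and from 4.8e-12 to 0.0339 for Cdk6, neither called without mouse 112 or 113, nor Cdk6 with the 10 libraries alone. Ccnd2 and Cdkn1a ran up to 0.123 and 0.169, as given above, and were not called without mouse 113.

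A set of genes rose more in STAT5cKO macrophages. Rgs1 (ENSMUSG00000026358, chromosome 1), which ends signaling from G protein-coupled receptors, had the second smallest p. It rose from 87.8 and 81.9 CPM to 133 and 143 CPM in STAT5fl/fl cells and from 75.4, 82.5 and 86.0 CPM to 302, 307 and 341 CPM in STAT5cKO cells (interaction 1.26 ± 0.09, adjusted p = 2.2e-07). The genotypes overlapped in DMEM, and in 4T1 CM the lowest STAT5cKO library was above both STAT5fl/fl libraries. Tgfb3, a ligand of the TGF-β family, rose from 3.64 and 4.47 CPM to 18.1 and 20.1 CPM against 2.57, 2.70 and 2.18 CPM to 33.8, 36.7 and 33.4 CPM (interaction 1.57 ± 0.19, adjusted p = 8.2e-05). Lmnb1 (lamin B1) rose 3.63-fold and 8.32-fold from a DMEM level that was lower in STAT5cKO cells, at 7.26, 7.09 and 7.66 CPM against 12.3 and 11.3 CPM (interaction 1.20 ± 0.14, adjusted p = 6.7e-05). Lin54, a subunit of the DREAM complex that controls cell cycle genes, was at 21.1 and 20.3 CPM in DMEM and 23.7 and 16.8 CPM in 4T1 CM in STAT5fl/fl cells and rose 2.29-fold in STAT5cKO cells (interaction 1.23 ± 0.19, adjusted p = 0.00061, from 3.1e-15 to 0.0186 over the alternatives, not called without mouse 113). Rgs1, Tgfb3 and Lmnb1 were called in every alternative.

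Of the growth factor and matrix lists, Vegfa, Thbs1 and Hgf were called, all 3 higher. Pgf, whose called interaction was lower, and Tgfb3, whose called interaction was higher, are described above and are on neither list. Vegfa, the vascular endothelial growth factor, rose from 27.3 and 20.9 CPM to 217 and 212 CPM in STAT5fl/fl cells and from 26.2, 17.5 and 19.1 CPM to 383, 322 and 371 CPM in STAT5cKO cells (interaction 0.95 ± 0.12, adjusted p = 0.00016). Thbs1, thrombospondin 1, rose from 31.6 and 26.1 CPM to 421 and 361 CPM against 37.7, 29.7 and 34.4 CPM to 904, 1136 and 1011 CPM (interaction 1.15 ± 0.17, adjusted p = 0.0004). Thbs1 was the called gene of 32 tested matrix and remodeling genes (3.1%, near the 2.27% of all tested genes), whose median interaction was -0.04. Hgf, hepatocyte growth factor, was at 47.3 and 49.8 CPM and 53.8 and 45.1 CPM in STAT5fl/fl cells and rose from 38.6, 36.2 and 34.9 CPM to 57.2, 61.5 and 55.3 CPM in STAT5cKO cells (interaction 0.64 ± 0.12, adjusted p = 0.0043). Vegfa and Hgf were the called members of 15 growth factors (13.3%, against 2.27% of all tested genes). Of this list 53.3% responded to 4T1 CM in STAT5fl/fl cells, against 39.5% of all tested genes. Vegfa had an adjusted p from 2.3e-14 to 0.017 over the alternatives, not called without mouse 112 or without the mouse block. Thbs1 ran from 1.8e-25 to 0.0149, not called without mouse 112 or 113, and Hgf from 2.7e-05 to 0.171, not called without mouse 113, 115 or 116 or with the 10 libraries alone.

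Vegfa, Mxi1 and Pfkfb3 were the called members of 23 hypoxia-inducible factor targets (13%, against 2.27% of all tested genes), all 3 higher, with a list median of 0.08. Of these targets 69.6% responded to 4T1 CM in STAT5fl/fl cells, against 39.5% of all tested genes. Pfkfb3, whose product raises the activator of phosphofructokinase, rose 2.96-fold and 4.69-fold (interaction 0.66 ± 0.10, adjusted p = 0.00055, from 7.3e-08 to 0.0236 over the alternatives, not called without mouse 113, without the mouse block or with limma voom). Of 18 tested glycolytic enzymes 0 were called by edgeR, 0 by DESeq2 and 0 by limma voom, with 3 at an unadjusted p under 0.05 in edgeR and a median of -0.02. The calls of Vegfa were lost without mouse 112 (adjusted p from 2.3e-14 to 0.017) and those of Mxi1 without mouse 112 or 113 (from 4.5e-06 to 0.0869).

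Immediate early genes, which are transcribed without new protein synthesis, split. Of 25 tested, 22 rose in STAT5fl/fl and 21 in STAT5cKO cells, where 20.4% and 20.3% of all tested genes rose, and 5 interactions were called (20%, against 2.27%). Fosb, a subunit of AP-1, rose from 1.32 and 1.73 CPM to 9.78 and 8.72 CPM in STAT5fl/fl cells and from 1.65, 1.65 and 2.43 CPM to 54.2, 43.3 and 39.5 CPM in STAT5cKO cells (interaction 1.96 ± 0.32, adjusted p = 0.0012). Egr3 rose from 2.68 and 1.94 CPM to 7.49 and 8.61 CPM against 2.30, 1.13 and 1.44 CPM to 16.0, 15.4 and 18.9 CPM (interaction 1.58 ± 0.30, adjusted p = 0.0038), while its relative Egr2 was lower, as given above. Mafk, a small MAF protein, fell 1.68-fold in STAT5fl/fl cells with a change of -0.19 ± 0.07 in STAT5cKO cells (interaction 0.56 ± 0.12, adjusted p = 0.0087). Ier5 rose 1.83-fold and 1.30-fold (interaction -0.49 ± 0.09, adjusted p = 0.0039). The list's median interaction was 0.20. Over the alternatives the adjusted p ran from 2.3e-11 to 0.0926 for Fosb (not called without mouse 113 or with limma voom), from 7.8e-08 to 0.105 for Egr3 (not called without mouse 112, 113, 115 or 116), from 0.00011 to 0.0829 for Ier5 (not called without mouse 112, 113, 115 or 116) and from 0.00013 to 0.262 for Mafk (not called without mouse 112, 113, 114 or 115, without the mouse block, with limma voom or after thinning). Egr3, Ier5 and Mafk were not called with the 10 libraries alone.

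In the remaining lists 1 to 3 genes were called, beside 2.27% of all tested genes, which for a list of 14 to 35 genes is fewer than 1. Between 57.1% and 85.7% of their members responded to 4T1 CM in STAT5fl/fl cells, against 39.5% of all tested genes. Of 25 NF-kB subunits and targets, the inhibitor gene Nfkbie (IκBε) and the activation marker Cd83 were higher. Nfkbie rose 3.43-fold and 5.15-fold (interaction 0.58 ± 0.10, adjusted p = 0.0024, from 1.4e-05 to 0.143 over the alternatives), and Cd83 2.26-fold and 3.89-fold (interaction 0.78 ± 0.13, adjusted p = 0.0013, from 2.9e-14 to 0.0351). Nfkbie was not called without mouse 113 or 114 or with the 10 libraries alone, and Cd83 not without mouse 112 or 113, without the mouse block or with limma voom. Of 14 MAPK feedback genes the list median was 0.33 and 11 interactions were positive (78.6%, against 51.8% of all tested genes), while the 1 called gene, Spred1, was lower (-0.67 ± 0.13, adjusted p = 0.0054, from 1.4e-09 to 0.12). Spred1 was not called without mouse 112, 113, 114 or 115, without the mouse block, with the 10 libraries alone or with limma voom. Of 15 mRNA decay regulators the antiproliferative gene Btg1 was lower, at 969 and 1089 CPM in STAT5fl/fl and 716, 843 and 704 CPM in STAT5cKO cells in 4T1 CM (interaction -0.81 ± 0.10, adjusted p = 9.4e-05, from 5.9e-16 to 0.0103, not called without mouse 113). Of 15 polarization markers, Egr2 was called. Of 26 macrophage and dendritic transcription factors, Bcl6 and Nfil3 were higher and Cebpd was lower. Nfil3 rose 9.84-fold and 14.5-fold (interaction 0.56 ± 0.12, adjusted p = 0.0096, from 0.0028 to 0.133) and Cebpd rose 1.40-fold in STAT5fl/fl cells with a change of -0.20 ± 0.09 in STAT5cKO cells (interaction -0.69 ± 0.14, adjusted p = 0.0084, from 0.00023 to 0.144). Of 35 ribosome biogenesis genes, Rrp1b was higher (0.64 ± 0.14, adjusted p = 0.0091, from 0.00079 to 0.149) and Heatr1 lower (-0.63 ± 0.09, adjusted p = 0.0004, from 2.3e-07 to 0.0165). The call of Heatr1 was lost without mouse 112, that of Cebpd without mouse 112, 113, 114 or 115, and those of Nfil3 and Rrp1b whichever of the 5 mice was left out and after thinning. Nfil3, Cebpd and Rrp1b were also not called without the mouse block, with the 10 libraries alone or with limma voom.

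**Figure D4:**
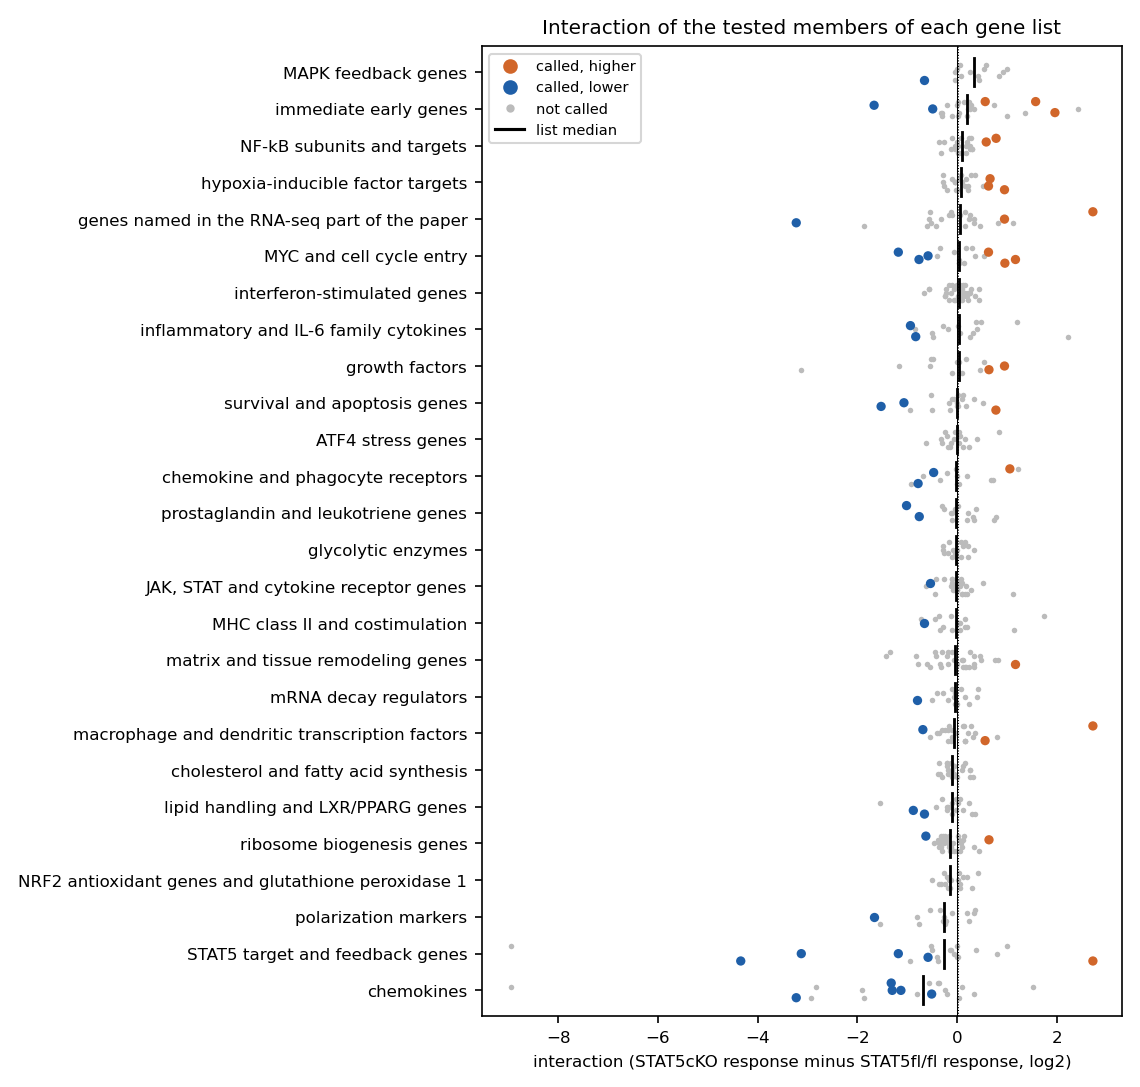
Interaction on the log2 scale of each tested member of 26 gene lists, ordered by the list median (black bar), with called members in orange (higher) and blue (lower). Chemokines have the lowest median at -0.68 and 5 called members, all lower, and interferon-stimulated genes, with 0 called of 37, lie close to 0. The grey point at the far left of the chemokine and STAT5 lists is Ccl17, which was near 0 counts in DMEM and whose fitted value (SE 2.77) is no bound.

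In 5 lists no interaction was called, the glycolytic enzymes above and the 4 below, which does not set them apart, since the 2.27% called of all tested genes corresponds to 0.839 genes in a list of 37 and to fewer in the others. Of 37 interferon-stimulated genes, which antiviral signals raise, 21 rose in STAT5fl/fl and 25 in STAT5cKO cells. Their interactions were called for 0 by edgeR, DESeq2 or limma voom and for at most 1 in any alternative, 7 (18.9%) had an unadjusted p under 0.05 against 16.3% of all tested genes, and the median was 0.04. Of 25 cholesterol and fatty acid synthesis genes, 17 rose in STAT5fl/fl and 16 in STAT5cKO cells, with 0 called by edgeR, DESeq2 or limma voom, at most 1 in any alternative, 0 at an unadjusted p under 0.05 in edgeR and a median of -0.09. Of 20 ATF4 stress genes, 4 rose and 4 fell in STAT5fl/fl cells, a share of 40% beside 39.5% of all tested genes. Their interactions were called for 0 by edgeR and limma voom and 1 by DESeq2, and those of 19 NRF2 antioxidant genes for 0 by all 3 and at most 1 in any alternative, with 4 (20%) and 5 (26.3%) at an unadjusted p under 0.05 in edgeR. Together the lists, apart from the list of genes named in the study that is described below, held 496 tested genes. Of these, 45 (9.07%) were called, 17 higher and 28 lower. The lists were chosen with earlier results of these data known, and their counts are descriptions.

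The study compared the genotypes within each treatment, which is a different question from the interaction. By qRT-PCR it reported Bcl6, Vegfa, Gpx1, Col1a1 and Col5a2 as higher in STAT5cKO macrophages treated with rmGM-CSF or 4T1 CM. By ELISA it reported more type I collagen from STAT5cKO cells, in medium collected after a longer culture than that of the RNA libraries. These are genotype differences within a treatment, and the collagen is protein, so the interactions below do not measure the same thing. Among 23 genes named in connection with RNA-seq in the study, a list chosen on these samples, 3 interactions were called (13%, against 2.27% of all tested genes). Bcl6 and Vegfa were higher and Ccl7 was lower. The other 20, which may still differ between the genotypes within a medium, were not called. They include Stat5a and Stat5b, whose 0 to 4 counts in each STAT5cKO library were too few to show a change there. Of these 20, Gpx1 and Lox were called as higher in STAT5cKO cells in both DMEM and 4T1 CM in the fit without the block, apart from the deleted Stat5a and Stat5b, which were lower. Gpx1, glutathione peroxidase 1, was at 314 and 309.7 CPM in STAT5fl/fl and 587, 607 and 639 CPM in STAT5cKO cells in DMEM, and at 382 and 412 CPM against 694, 704 and 699.9 CPM in 4T1 CM (interaction -0.15 ± 0.09, adjusted p = 0.47). Cd86, a costimulatory ligand, rose to 169.6 and 186 CPM against 146, 158 and 159 CPM (interaction 0.17 ± 0.11, adjusted p = 0.49). The matrix genes Vcan (0.82 ± 0.49), Mmp14 (-0.61 ± 0.45), Tnc (-0.32 ± 0.50) and Col1a1 (0.23 ± 0.82) had standard errors of 0.45 or more and were not called. Col1a1 was at 4 to 74 counts in each of the 10 libraries. It is on the fibroblast list given above and with Col1a2 carries the sum of that list, so the sum is not separate from it. The other members reached at most 12 counts (Col3a1 and Dcn), 8 (Pdgfra) and 1 (Lum) in any library of the series. Mmp14 was called as lower when mouse 115 was left out (adjusted p = 0.0063, from 0.0063 to 0.91 over the alternatives), whose 4T1 CM library held 77.8 CPM against 16.9 and 29.4 CPM in the other STAT5cKO mice.

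The interaction is the genotype difference in 4T1 CM minus that in DMEM, so the libraries behind it also say in which medium the genotypes stood apart. In the fit without the block, 306 genes (2.35%) differed between the genotypes in DMEM, 0.923% higher and 1.43% lower in STAT5cKO cells, and 968 (7.44%) in 4T1 CM, 4.01% higher and 3.43% lower. Of the 295 genes called for the interaction, 203 differed in 4T1 CM and not in DMEM, 27 in DMEM and not in 4T1 CM, 11 in both and 54 in neither. As these comparisons share libraries with the interaction, the counts are a description. Bcl6, Rgs1, Rhoq, Cish, Socs2, Pgf and Enah were among the genes called in 4T1 CM and not in DMEM. Hgf was among those called in DMEM and not in 4T1 CM, with a genotype difference of -0.41 in DMEM and 0.23 in 4T1 CM. Cdkn1a differed in DMEM by 0.95 and had a difference of 0.36 in 4T1 CM that was not called.

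rmGM-CSF gives the same interaction for a single cytokine. It shares the DMEM libraries with the 4T1 CM interaction, so the values stand side by side with no test of likeness. The interaction with rmGM-CSF was called for 526 genes (4.04%), 1.41% higher and 2.63% lower. Rhoq was lower by 1.07 with 4T1 CM and 1.27 with rmGM-CSF, Pgf by 3.77 and 4.42, and Egr2 by 1.66 and 1.05. The difference between the interactions, in which the DMEM libraries cancel, was called for 276 genes (2.12%), 1.78% with a positive and 0.346% with a negative difference. It was called for Bcl6, whose interaction was 2.72 with 4T1 CM and 3.97 with rmGM-CSF, and for Socs2 (-3.13 and -5.76), Cish (-4.34 and -6.21), Ccl7 (-3.23 and -6.00), Scimp (-2.30 and -4.10) and Tiam1 (-1.24 and -2.05), for which the interaction was smaller in size with 4T1 CM. In the STAT5fl/fl libraries Cish was at 149.6 and 146 CPM in rmGM-CSF against 33.0 and 38.6 CPM in 4T1 CM. Ccrl2 (1.06 and -0.10), Ifrd1 (0.90 and -0.21), Lin54 (1.23 and -0.11), Tbc1d30 (1.55 and 0.03) and Mxd1 (1.17 and 0.10) had interactions with 4T1 CM and none called with rmGM-CSF, and the difference was called for all 5. Nfil3 had interactions of opposite sign, 0.56 with 4T1 CM and -1.74 with rmGM-CSF, both called, with the limits on the former given above (adjusted p from 0.0028 to 0.133, not called when any of the 5 mice was left out).

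**Figure D5:**
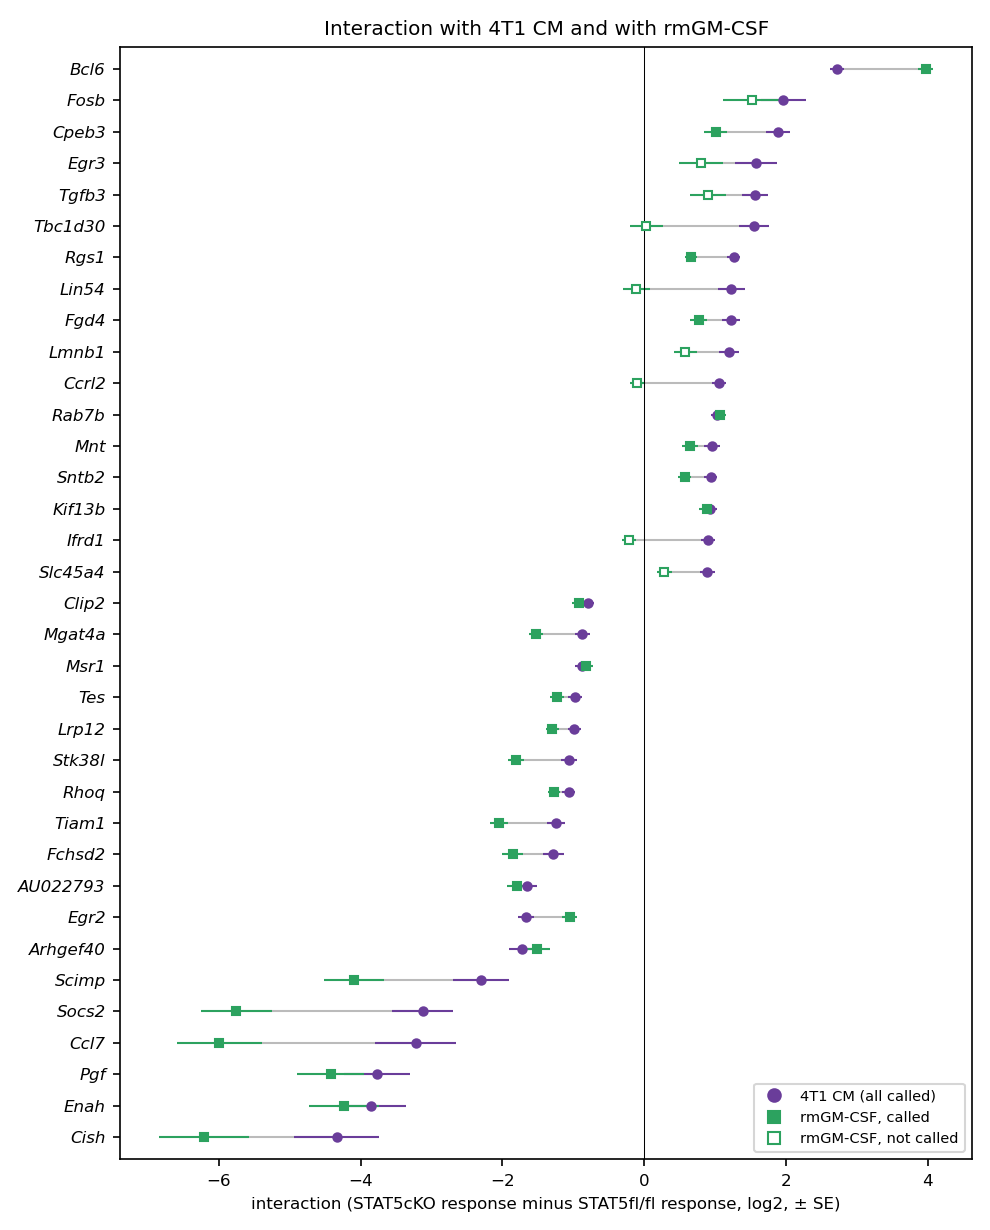
Interaction with 4T1 CM (purple circles) and with rmGM-CSF (green squares, filled where called) on the log2 scale, with SE, for the 35 genes named by p or by size. Both interactions use the same DMEM libraries. Cish, Socs2, Ccl7 and Scimp are further from 0 with rmGM-CSF, and Ccrl2, Ifrd1, Lin54 and Tbc1d30 are near 0 with it.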

How the data were processed

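RNA of 15 BMDM libraries, from 2 STAT5fl/fl and 3 STAT5cKO mice in DMEM, rmGM-CSF and 4T1 CM, was sequenced, with 1 library for each mouse and medium. The deposited values are raw read counts per gene, which the authors made by trimming with Trimmomatic 0.33, aligning to GRCm38 with HISAT2 2.1.0 and counting read pairs by strand with featureCounts 1.6.2 at a mapping quality of at least 10. A STAT5fl/fl replicate was removed after quality control, per the study methods. All columns were matched to samples by their labels.

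Counts of 13005 of 55385 genes, those over 1 CPM in at least 2 libraries, were scaled by RLE factors and tested with edgeR 4.0.16 (R 4.3.3) by the quasi-likelihood F test with Benjamini-Hochberg adjustment, called at an adjusted p under 0.01. All p-values quoted come from that model unless another tool is named. The model held a term for each of the 5 mice and the response to each treatment in each genotype, leaving 6 residual degrees of freedom, and had a common biological coefficient of variation of 0.0668. Genotypes within a medium were compared without the mouse terms, since a mouse has 1 genotype. Libraries held 16016736 to 22883108 counts.

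Libraries whose titles open with the same number were taken as 1 mouse and blocked, a reading that the titles do not state. The deviations of such libraries from their group means correlated at 0.0926 to 0.213 in STAT5fl/fl and 0.0548 to 0.214 in STAT5cKO mice. Named genes were, among called genes whose changes by mouse did not overlap, the 12 with the smallest adjusted p and the 8 with the largest change in each direction (group mean of at least 5 CPM, no predicted genes), then called members of the gene lists, genes named in the study's RNA-seq account, and Stat5a and Stat5b. The members and lists were chosen with earlier results of these data known. Alternatives covered the block, libraries, scaling, filter, test (DESeq2 1.42.0, limma 3.58.1), threshold, depth and mice, with robust dispersions added after seeing the data. Counts without molecular identifiers are not independent molecules.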

Additional observations from a re-analysis of the deposited data

Results flagged for a closer look

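For 15 of the genes named by p or by size, the interaction with 4T1 CM and the interaction with rmGM-CSF differed in an edgeR test of that difference (adjusted p under 0.01, 2.12% of all tested genes). The test compares the genotype difference in 4T1 CM with that in rmGM-CSF, in which the DMEM libraries cancel, and it shares the 4T1 CM libraries with the contrast that named the genes. The difference, as the 4T1 CM interaction minus the rmGM-CSF interaction on the log2 scale, was 2.77 for Ccl7, 2.63 for Socs2, 1.87 for Cish, 1.79 for Scimp, 0.80 for Tiam1, 0.75 for Stk38l and 0.66 for Mgat4a, each of which had a more negative interaction with rmGM-CSF. It was 1.52 for Tbc1d30, 1.34 for Lin54, 1.16 for Ccrl2, 1.11 for Ifrd1, 0.61 for Slc45a4 and 0.60 for Rgs1, which had a more positive interaction with 4T1 CM. It was -1.25 for Bcl6, whose interaction was more positive with rmGM-CSF, and -0.61 for Egr2, whose interaction was more negative with 4T1 CM. The groups of 2 or 3 mice were too small for a check on single outlying libraries.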

How the results depend on the processing

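The interaction was called for 295 genes (168 higher, 127 lower), and every alternative kept the direction of each of them, which the change of threshold could not alter. The number of calls was 170 (99 higher, 71 lower) without the replicate block, 118 (67 and 51) with the 10 libraries alone, 576 (342 and 234) without a low-count filter, of which 4 were genes outside the usual filter, 475 (282 and 193) by the likelihood ratio test, 194 (77 lower) by limma voom and 608 (359 and 249) at an adjusted p under 0.05. DESeq2 made 413 calls, TMM scaling 311, filterByExpr 310, thinning to the smallest total 297 and robust dispersions 365. Leaving out 1 mouse gave 68 to 218 calls, 35 to 120 higher and 33 to 100 lower, with the fewest without mouse 113 (68) and mouse 112 (134), where the lone STAT5fl/fl mouse was assumed to vary like the others. The response of STAT5fl/fl cells was called for 2995 to 5144 genes when 1 mouse was left out and that of STAT5cKO cells for 4002 to 4970. Of the 70 named calls, 30 held in every alternative. The block decided 21 of the 70, which were lost without it, each named as such where the gene is described. Signs turned for genes that were not called. Without a mouse the interaction ranged from -1.04 to 0.091 for Tnc, -0.49 to 0.66 for Bgn, -0.11 to 0.15 for Cd74, -0.060 to 1.21 for Ccn2, -0.35 to 0.90 for Col1a1 and -0.93 to 0.72 for Col5a2, which was 0.039 after thinning. The causes were not tested. Depth limited genes near the floor of 3 counts, such as Cish and Ccl7 in DMEM.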
